A study of Mus musculus with 10 samples.

Results

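The cathepsins described here are 9 genes for proteases of the endosome and lysosome: Ctse, Ctsd, Ctsa, Ctsb, Ctsc, Ctsh, Ctsl, Ctss and Ctsz. They were taken by name from a table of 17658 genes, and all 9 passed the expression minimum of a mean of 1 FPKM over the 10 libraries, as did 10225 genes in all. FPKM are fragment counts divided by transcript length and sequencing depth, so levels of different genes can be set beside each other. Polyadenylated RNA was sequenced from B cells of C57BL/6 mice aged 10 weeks, taken from spleen and lymph node and enriched magnetically by negative selection. Mice were Nr4a1+/+ (wild type) or Nr4a1-/- (knockout, for which the labels name no tissue restriction), and Nr4a1 encodes Nur77, a nuclear receptor induced through the B cell antigen receptor. Each genotype has 1 unstimulated library, called resting below and lettered A, and 4 libraries of cells given 10 µg/mL anti-IgM for 2 h, lettered A to D; values by library are always given in that order. Anti-IgM crosslinks the antigen receptor. No time in culture is given for the resting libraries. The part of 2 h in culture in the changes with anti-IgM described below was not tested. The labels do not say that letters stand for separate mice, so p-values measure the spread between these libraries, which may be technical.

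Cathepsins cut proteins in acidic compartments, and in B cells they take part in preparing antigen for MHC class II molecules. They fall into 3 catalytic classes: cathepsins E and D are aspartic proteases, cathepsin A is a serine carboxypeptidase, and cathepsins B, C, H, L, S and Z are cysteine proteases of the papain family. Cathepsin S trims the invariant chain, which occupies the class II groove before antigen is loaded, and cathepsin L does so in thymic epithelium. Cathepsin E, in contrast to the widely expressed cathepsin D, is found mainly in immune cells, skin and the stomach.

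Ctse was the cathepsin that separated the genotypes. It held 46.0 ± 1.14 FPKM (SD, n = 4) in stimulated wild-type cells and 13.6 ± 0.866 FPKM (SD, n = 4) in stimulated libraries labelled knockout, and the resting pair showed a gap of similar size. The other 8 cathepsins overlapped between the genotypes. After anti-IgM, Ctse, Ctsh, Ctss and Ctsc fell and Ctsz and Ctsb rose, in a family whose summed level went from 1044 FPKM to 686 ± 7.58 FPKM (SD, n = 4) in wild type.

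Relative depth, read from the steps of low FPKM values, ran from 0.913 in the resting wild-type library to 1.06. Summed FPKM was 674961 in resting wild type, 595500 in the resting library labelled knockout and 557214 to 571784 after anti-IgM. All 8 B cell markers examined were expressed, from Cr2 (41.8 FPKM, resting wild type) to Cd79b (1595 FPKM, resting wild type). The targeted gene itself did not separate the genotypes: Nr4a1 stood at 126 FPKM in each resting library, and at 808 ± 47.2 (wild type) and 702.1 ± 44.6 FPKM (labelled knockout; SD, n = 4 each) after stimulation, with overlapping libraries (-0.20, limma adjusted p = 0.0432, called in 9 of 19 alternatives). That call was lost with any stimulated library left out except wild-type B and labelled-knockout C. Whether the gene-level value covers the altered part of the locus is not known, so genotypes are named as labelled. In bulk RNA, fewer cells of a type and less RNA per cell cannot be told apart.

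Within the family, cysteine cathepsins held the highest levels. In the resting wild-type library the order by FPKM was Ctss (394), Ctsh (173), Ctsz (149), Ctse (146), Ctsc (76.4), Ctsa (42.05), Ctsd (35.5), Ctsb (22.3) and Ctsl (5.92). In the resting library labelled knockout, Ctse ranked 6 instead of 4, behind Ctsc and Ctsa. After anti-IgM in wild type the order was Ctsz, Ctss, Ctsh, Ctsc, Ctse, Ctsa, Ctsd, Ctsb and Ctsl, and Ctsz overlapped with Ctss and Ctse with Ctsa. In stimulated libraries labelled knockout Ctse moved to rank 8, below Ctsb and above Ctsl alone, and the only neighbours to overlap were Ctsh and Ctsc. Ctse thus made up 13.9% of the summed cathepsin FPKM in resting wild type and 5.01% in the resting library labelled knockout. Its share was 6.70 ± 0.145% and 2.12 ± 0.0873% (SD, n = 4 each) after anti-IgM.

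**Figure D1:**
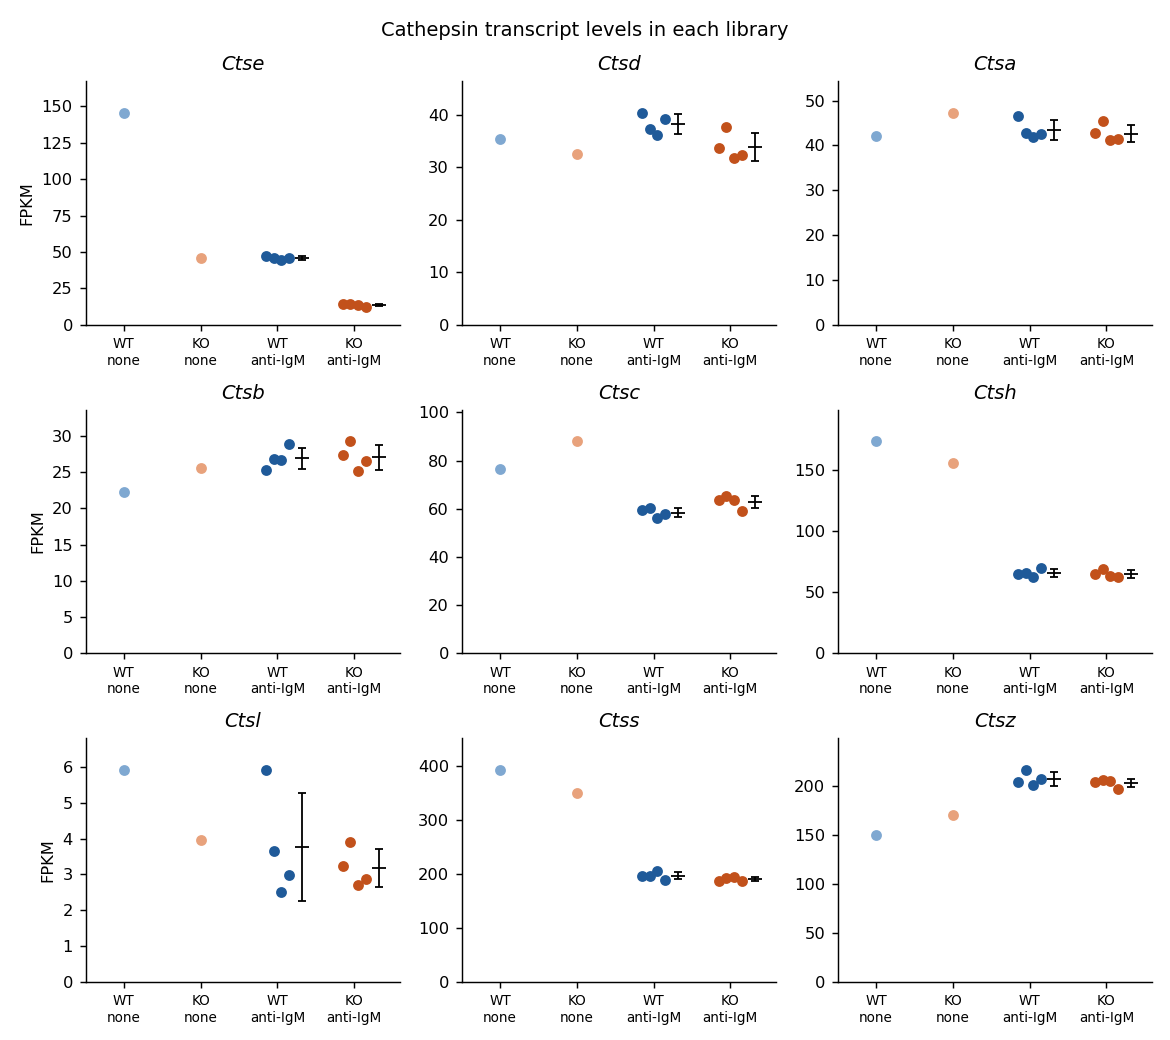
FPKM of the 9 cathepsins in each library, for the wild type (WT, blue) and libraries labelled knockout (KO, orange), without stimulation and after anti-IgM. Points are libraries, bars are the mean and SD of 4, and each axis starts at 0. Ctse alone shows stimulated groups that do not overlap, at 44.7 to 47.4 FPKM in wild type and 12.35 to 14.3 FPKM in knockout.

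Ctse, the aspartic protease, lies on the forward strand of chromosome 1 at chr1:131638314-131675507 (RefSeq, GRCm38.p6), and none of its exons overlap those of another gene in GENCODE M21. It was listed at 146 FPKM in resting wild type and at 46.1 FPKM in the resting library labelled knockout. Stimulated wild-type libraries held 47.4, 45.6, 44.7 and 46.15 FPKM, and those labelled knockout held 13.97, 14.3, 13.7 and 12.35 FPKM. The stimulated groups are far apart relative to their spread, in every library. The resting library labelled knockout lay inside the range of the stimulated wild-type libraries.

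All differences that follow are log2 values of FPKM plus 1, a scale that understates the change of low genes, and the threshold for a call was an adjusted p of 0.05 (limma, Benjamini-Hochberg over all 10225 tested genes). Between the stimulated genotypes Ctse differed by -1.69 (SE 0.045, 95% interval -1.79 to -1.59, limma adjusted p = 1.76e-07), a 3.39-fold lower level in the libraries labelled knockout. No tested gene had a smaller p, and Ctse was the 7th most negative difference. Over the 8 libraries alone, the two-sided exact permutation p was 0.0286, the smallest that 70 labellings can give. The difference kept its call in all 19 alternatives, from -1.75 to -1.46. Before stimulation the level was 3.16-fold lower in the library labelled knockout, a log2 difference of -1.64 between single libraries with no replicate check. A drop of at least 1 was seen in that pair for 0.636% of tested genes.

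For Ctse the difference with anti-IgM was about as large as that between genotypes. Stimulated wild-type cells held 31.6% of the resting level and stimulated libraries labelled knockout held 29.4%. Over both genotypes Ctse fell by 1.67 on the log2 scale (SE 0.052, limma adjusted p = 2.94e-10). The genotype difference after stimulation departed from that before by -0.052 (95% interval -0.27 to 0.17, limma adjusted p = 0.759). A departure inside that interval was not detectable with 1 resting library per genotype. The sign of this small departure depended on the scale, at 0.10 with a pseudocount of 5, 0.024 under median-of-ratios and 0.20 under quantile scaling.

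**Figure D2:**
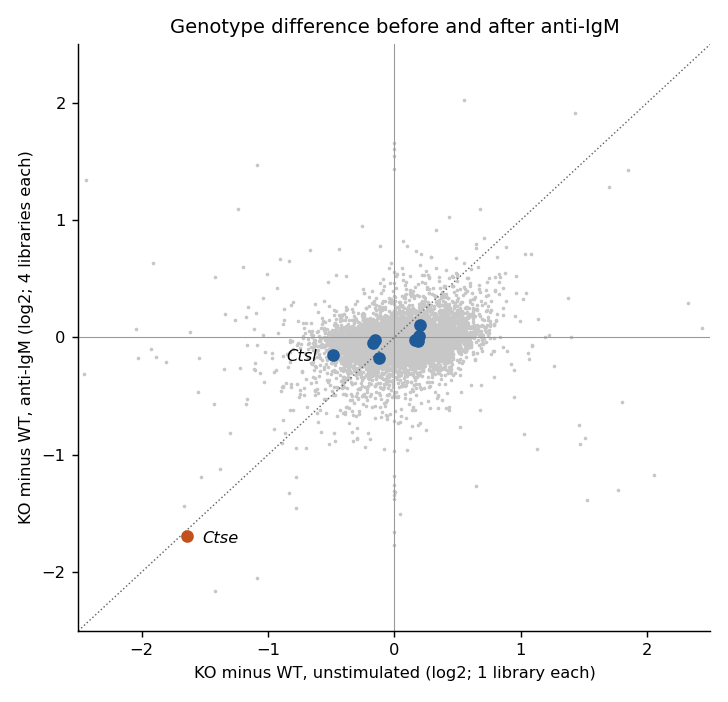
Genotype difference (log2 FPKM plus 1, KO minus WT) of each tested gene without stimulation (x axis, 1 library each) and after anti-IgM (y axis, 4 libraries each). Grey points are all tested genes (37 lie outside the axes), blue points the other 8 cathepsins and the orange point Ctse, which sits at -1.64 and -1.69, next to the dotted line of equal differences.

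Ctsd, the second aspartic protease and a main endopeptidase of the lysosome, was close between genotypes. Its locus is chr7:142375910-142387827 on the reverse strand. Wild-type libraries held 40.4, 37.4, 36.25 and 39.2 FPKM after anti-IgM, and libraries labelled knockout held 33.75, 37.7, 31.9 and 32.4 FPKM. In 3 of the 4 libraries labelled knockout the level was below every wild-type library, and library B lay among them. The difference of -0.17 (95% interval -0.30 to -0.049) was not called (limma adjusted p = 0.0901), but it was called without library B labelled knockout (-0.22, limma adjusted p = 0.0150). Without stimulation the levels were 35.5 and 32.5 FPKM, and the change with anti-IgM was 0.082 (limma adjusted p = 0.248). That change was called on the TPM scale (0.24, limma adjusted p = 0.0168) and with median-of-ratios scaling (0.25, limma adjusted p = 0.00107). In GENCODE M21 an exon of Gm49369 on the same strand overlaps Ctsd, so part of its reads may have been assigned elsewhere.

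Ctsa, the serine carboxypeptidase that also protects lysosomal neuraminidase, was not called in any comparison on the deposited scale. It lies at chr2:164832872-164841032 on the forward strand, with exons overlapped on the other strand by Neurl2 and Pltp. Resting levels were 42.05 FPKM (wild type) and 47.3 FPKM (labelled knockout). After anti-IgM it ranged from 41.8 to 46.6 FPKM in wild type and from 41.2 to 45.4 FPKM in the libraries labelled knockout. The genotype difference was -0.024 (95% interval -0.12 to 0.073, limma adjusted p = 0.802). The change with anti-IgM was -0.052 (limma adjusted p = 0.431) on the deposited scale, 0.12 with median-of-ratios scaling (limma adjusted p = 0.0313) and -0.12 after quantile normalization (limma adjusted p = 0.0384), so it has no stable direction.

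Among the cysteine cathepsins, 3 fell after anti-IgM. Ctsh, an aminopeptidase (chr9:90054267-90076095, forward strand), was listed at 173 FPKM in resting wild type and 155 FPKM in the resting library labelled knockout. Stimulated wild-type libraries held 64.6, 65.7, 62.7 and 69.9 FPKM and libraries labelled knockout held 64.7, 69.0, 63.15 and 62.1 FPKM. All 8 stimulated libraries lay far below both resting ones, and the genotypes intermixed. The change was -1.32 (SE 0.053, limma adjusted p = 1.71e-09), with 38.0% of the resting level left in wild type and 41.6% in those labelled knockout.

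Ctss, the invariant chain protease and the most abundant cathepsin before stimulation (chr3:95526786-95556405, forward strand), stood at 394 and 350 FPKM in the resting wild-type library and the resting library labelled knockout. Stimulated wild-type libraries held 196, 196, 206 and 189 FPKM, and libraries labelled knockout held 188, 192, 195 and 187 FPKM. The level after anti-IgM was 49.98% of that before in wild type and 54.4% in those labelled knockout, with no gap between genotypes. The change was -0.94 (SE 0.043, limma adjusted p = 4.47e-09). Ctsc, a dipeptidyl peptidase that activates granule serine proteases in other leukocytes (chr7:88278024-88315861, forward strand), went from 76.4 FPKM to 59.5, 60.25, 56.2 and 57.9 FPKM in wild type. It went from 88.0 FPKM to 63.5, 65.2, 63.5 and 59.2 FPKM in the libraries labelled knockout. This was a smaller fall of -0.43 (SE 0.046, limma adjusted p = 5.13e-06).

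Ctsz rose. This carboxypeptidase, also called cathepsin X (chr2:174427494-174439039, reverse strand), was listed at 149 FPKM in resting wild type and 170.4 FPKM in the resting library labelled knockout. After anti-IgM, wild-type libraries held 203, 216, 201 and 206 FPKM and libraries labelled knockout held 204, 206, 205 and 197 FPKM. Every stimulated library exceeded both resting ones. Ctsz then had the highest mean of the cathepsins in each genotype, although in wild type its libraries overlapped with those of Ctss. The change was 0.36 (SE 0.050, limma adjusted p = 4.90e-05), and it was not called after quantile normalization (0.12, limma adjusted p = 0.0737). Exons of Nelfcd on the other strand overlap Ctsz.

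Ctsb and Ctsl were the least abundant cysteine cathepsins. Ctsb, which cuts both within proteins and at their ends (chr14:63122462-63145923, forward strand), stood at 22.3 FPKM in resting wild type and 25.6 FPKM in the resting library labelled knockout. After anti-IgM it ranged from 25.3 to 28.8 FPKM in wild type and from 25.1 to 29.3 FPKM in the libraries labelled knockout. Its rise of 0.17 was close to the threshold (limma adjusted p = 0.0360), and the resting library labelled knockout lay inside the stimulated range. The call was lost without resting wild-type library A (0.075, limma adjusted p = 0.425). It was also lost without stimulated wild-type library B or C or library A or B labelled knockout, with limma adjusted p between 0.0506 and 0.0543, and with letter as a block (limma adjusted p = 0.224). The call did not hold without the filter on low values either. Fdft1 on the other strand overlaps Ctsb.

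Ctsl, an endopeptidase (chr13:64361890-64370772, reverse strand) stood at 5.92 and 3.95 FPKM in the resting libraries, wild type and labelled knockout. After anti-IgM, wild-type libraries held 5.91, 3.66, 2.52 and 2.99 FPKM and libraries labelled knockout held 3.24, 3.91, 2.70 and 2.86 FPKM. Wild-type library A stood above the rest, and Ctsl had the widest spread of the family. The change with anti-IgM of -0.42 was not called (limma adjusted p = 0.0835) and was called without wild-type library A (-0.51, limma adjusted p = 0.0109). Library A also had the highest summed erythroid markers of the stimulated wild-type libraries, 21.5 FPKM where the others held 3.13 to 5.46, and their part in its Ctsl value was not tested. Gm47123 on the other strand and Gm49230 on the same strand overlap Ctsl.

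Counted together, anti-IgM raised 2 of the 9 cathepsins (Ctsz, Ctsb), lowered 4 (Ctse, Ctsh, Ctss, Ctsc) and left 3 without a call (Ctsa, Ctsd, Ctsl). These tests set 8 stimulated against 2 resting libraries, for which no time in culture is given, so anti-IgM and 2 h in culture were not separated. Stimulation called 78.9% of all tested genes, 31.2% higher and 47.7% lower, so calls alone do not set the family apart. With a change of at least 1 in size, 2 cathepsins were lower (Ctse, Ctsh), beside 12.4% of tested genes. The median change was -0.42 over the cathepsins and -0.17 over all tested genes. The latter was -0.047 on the TPM scale, -0.015 under median-of-ratios scaling and -0.0022 under quantile normalization, so changes are best read against that shift. Relative to the median of all genes on the deposited scale, Ctse changed by -1.50, Ctsh by -1.15, Ctss by -0.76, Ctsc by -0.26, Ctsb by 0.34 and Ctsz by 0.53.

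Between the stimulated genotypes 1 of the 9 cathepsins was called, Ctse, which was lower. The comparison called 9.72% of tested genes: in libraries labelled knockout 3.91% were higher and 5.81% lower. Ctse was also the single member whose 4 and 4 libraries did not overlap, a pattern seen in 15.5% of tested genes. Of the others, Ctsc differed by 0.10 (95% interval 0.023 to 0.18, limma adjusted p = 0.116). It was called higher with median-of-ratios scaling (0.14, limma adjusted p = 0.0302) and without library D labelled knockout (0.13, limma adjusted p = 0.0427). The 95% intervals of Ctsh, Ctss and Ctsz all lay between -0.12 and 0.072, so larger genotype differences of these abundant cathepsins fall outside their intervals. The median difference was -0.027 over the cathepsins and -0.024 over all tested genes. The interval of Ctsl was wider, from -0.58 to 0.28, so differences inside that range are not set apart from no difference.

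**Figure D3:**
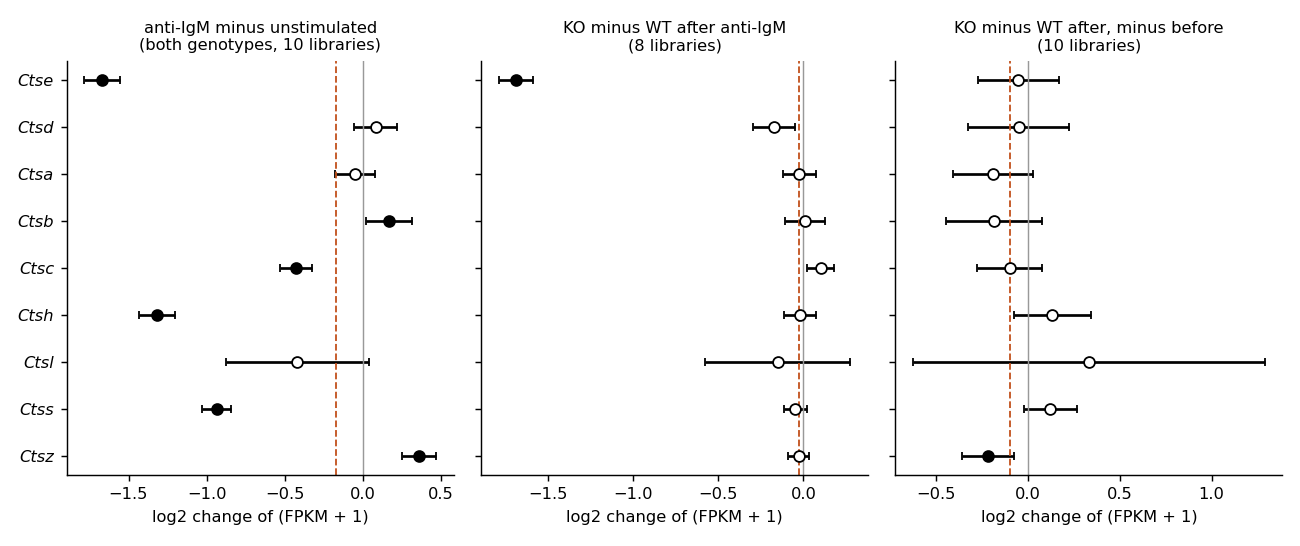
Fitted log2 differences (FPKM plus 1) of the 9 cathepsins with 95% intervals: anti-IgM against resting (left), KO minus WT after anti-IgM (middle) and KO minus WT after minus before (right). Filled points were called at an adjusted p under 0.05, open points were not, and the dashed line is the median of all tested genes. Ctse stands apart at -1.67 (left) and -1.69 (middle) and lies at -0.052 on the right.

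Whether the genotype difference itself changed with anti-IgM was tested as an interaction. Here the lone resting library of each genotype is assumed to vary like the stimulated ones. Ctsz was called, at -0.22 (95% interval -0.36 to -0.078, limma adjusted p = 0.0386): the level in libraries labelled knockout was 114% of wild type before stimulation and 98.1% after it. The comparison called 18.9% of tested genes, 4.18% higher and 14.7% lower, with a median of -0.096 over all of them. The Ctsz call was lost with median-of-ratios scaling (-0.14, limma adjusted p = 0.207), after quantile normalization (limma adjusted p = 0.0556) and with letter as a block (limma adjusted p = 0.0682). It was also lost without wild-type library D and without library A or D labelled knockout, with limma adjusted p between 0.0554 and 0.0624. The call did not hold under eBayes without trend either. No other cathepsin was called on the deposited scale, and on the TPM scale Ctsa (-0.36, limma adjusted p = 0.0315) and Ctsc (-0.27, limma adjusted p = 0.0385) were called too. Differences of the resting pair were 0.20 for Ctsc, 0.19 for Ctsb and Ctsz, 0.17 for Ctsa, -0.12 for Ctsd, -0.15 for Ctsh, -0.17 for Ctss and -0.48 for Ctsl, where the median of all tested genes was 0.067.

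Promoter sequences were examined for motifs tied to the receptor and to lysosomal genes, in windows from 250 bases before to 50 after an annotated start site (RefSeq, GRCm38.p6). Such windows were at hand for 6 of the 9 cathepsins, Ctsa (2 start sites), Ctsc, Ctsd, Ctsl, Ctss and Ctsz. Ctse, Ctsb and Ctsh were not analysed here. AAAGGTCA, the element bound by Nr4a1 as a monomer, occurred in none of these 7 windows on either strand, and in 1.51% of 32851 windows genome-wide. TGANTCA, the AP-1 motif, also occurred in none (7.81% genome-wide). CACGTG, the core of the element through which TFEB acts on lysosomal genes, occurred in 3 windows (7.15% genome-wide). These were at the second start site of Ctsa and in Ctsd and Ctsl. Of the 250 bases before these start sites, GENCODE M21 places 164 (Ctsa), 211 (Ctsd) and 48 (Ctsl) inside exons. The matches of Ctsa and Ctsl lie inside the loci given above for these genes, so their start sites are internal to those loci. All 5 matches are shown as a description of the sequence only, and any link to the response to anti-IgM was not tested. The genes that hold them, Ctsa, Ctsd and Ctsl, had no call after anti-IgM on the deposited scale. Ctsa and Ctsd were called on other scales. Capitals mark CACGTG, which reads the same on both strands:
Ctsd, base -245, chr7:142388057-142388077, reverse strand: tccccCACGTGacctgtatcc
Ctsd, base -98, chr7:142387910-142387935, reverse strand: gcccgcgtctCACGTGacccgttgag
Ctsa, base -12, chr2:164833751-164833776, forward strand: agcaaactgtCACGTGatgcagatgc
Ctsa, base 6, chr2:164833768-164833793, forward strand: tgcagatgctCACGTGaccagagcta
Ctsl, base -236, chr13:64370741-64370766, reverse strand: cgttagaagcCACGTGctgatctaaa

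GAGGAA, the core bound by the myeloid and B cell factor PU.1, was found in 2 of the 7 windows, Ctss and Ctsc. This is close to its share of 28.3% of windows genome-wide, so the count does not set the cathepsins apart. The Ctss and Ctsc matches are shown with GAGGAA or its reverse complement TTCCTC in capitals. Both genes fell after anti-IgM, but any link to this motif was not tested. Ctse and Ctsh, the cathepsins that fell most, had no window. A match of 6 letters is common and is a description of the sequence only:
Ctss, base -164, chr3:95526612-95526637, forward strand: cacagggttgGAGGAAaactttgtcc
Ctss, base 1, chr3:95526776-95526801, forward strand: gaaagttcacTTCCTCattgtggatg
Ctsc, base -196, chr7:88277879-88277904, forward strand: actttccttcTTCCTCctagtggtgc
Ctsc, base -149, chr7:88277926-88277951, forward strand: actaactaacTTCCTCaggccacctc
The 250 bases before the Ctss start site, which GENCODE M21 places outside every exon, hold the Ctss match at base -164 and are shown for its context.
Ctss upstream, chr3:95526536-95526785, forward strand: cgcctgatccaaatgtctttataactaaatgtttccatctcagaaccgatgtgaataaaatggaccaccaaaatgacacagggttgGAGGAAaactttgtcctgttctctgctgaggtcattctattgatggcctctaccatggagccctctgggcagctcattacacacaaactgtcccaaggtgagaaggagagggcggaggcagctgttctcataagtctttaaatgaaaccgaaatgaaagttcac

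The low Ctse of the libraries labelled knockout was not shared by its chromosomal neighbours. The 3 nearest tested genes on each side were Rassf5, Ikbke and Srgap2 before it and Slc41a1, Rab7l1 and Nucks1 after it. None was called lower. Rassf5, a Ras effector, held 11.99 to 13.3 FPKM in stimulated wild type and 15.4 to 17.1 FPKM in stimulated libraries labelled knockout, a difference of 0.32 (limma adjusted p = 0.00172). Slc41a1, a magnesium transporter, held 23.4 to 24.9 and 26.0 to 29.9 FPKM (0.20, limma adjusted p = 0.0194), and its call was lost without wild-type library B or C, with limma adjusted p up to 0.0596. The differences of the other 4 ran from -0.11 to 0.019 and were not called.

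**Figure D4:**
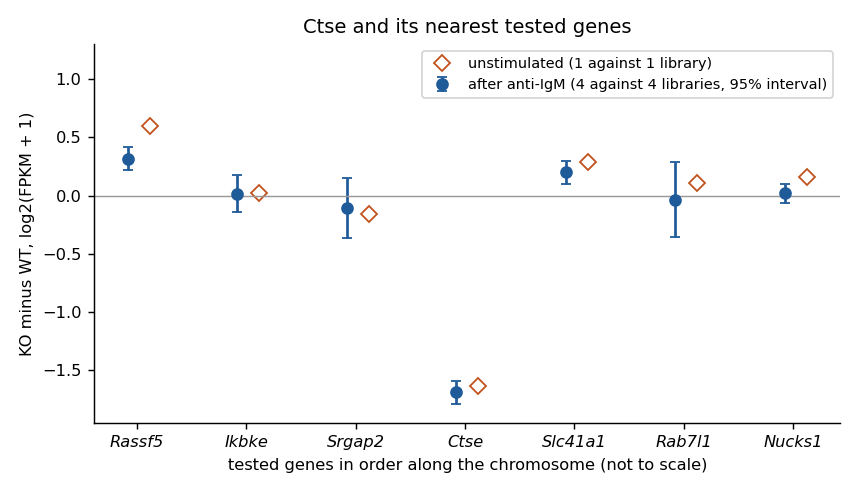
Genotype difference (log2 FPKM plus 1, KO minus WT) of Ctse and its 3 nearest tested genes on each side, in chromosomal order and not to scale. Filled circles with 95% intervals are the stimulated libraries (4 against 4) and open diamonds the resting pair (1 against 1). Ctse lies near -1.7 in each, and no point of a neighbour lies below -0.16.

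The genes whose levels followed Ctse most closely over the 10 libraries were sought among 2492 tested genes whose mean reached 5 FPKM and whose log2 range reached 1. They were Pkig (Pearson r 0.989, Spearman rho 0.976), Rb1 (0.981 and 0.782), Clec2d (0.981 and 0.842), 2310001H17Rik (0.969 and 0.855) and Arap2 (0.968 and 0.806). These values are descriptions over 10 libraries that fall into 4 groups, and they take in the differences with genotype and with anti-IgM. Pkig, an inhibitor of protein kinase A, stood at 93.4 and 54.0 FPKM without stimulation, in wild type and labelled knockout. It held 58.1, 54.0, 52.5 and 59.15 FPKM in stimulated wild-type libraries and 23.3, 26.2, 24.2 and 22.5 FPKM in those labelled knockout. Rb1, the retinoblastoma protein, ran from 24.9 FPKM in resting wild type to 11.9 to 13.2 FPKM in stimulated libraries labelled knockout. Clec2d, a lectin-like ligand of NK cell receptors, ran from 197 to between 88.3 and 98.6 FPKM, 2310001H17Rik from 15.6 to between 5.66 and 7.06 FPKM, and Arap2 from 44.65 to between 17.55 and 20.6 FPKM. The range of Ctse, from 146 to 12.35 FPKM, was wider than that of any of these 5. Of the other cathepsins, Ctss (r 0.69) and Ctsh (r 0.66) were most like Ctse, and Ctsz (-0.62) least.

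**Figure D5:**
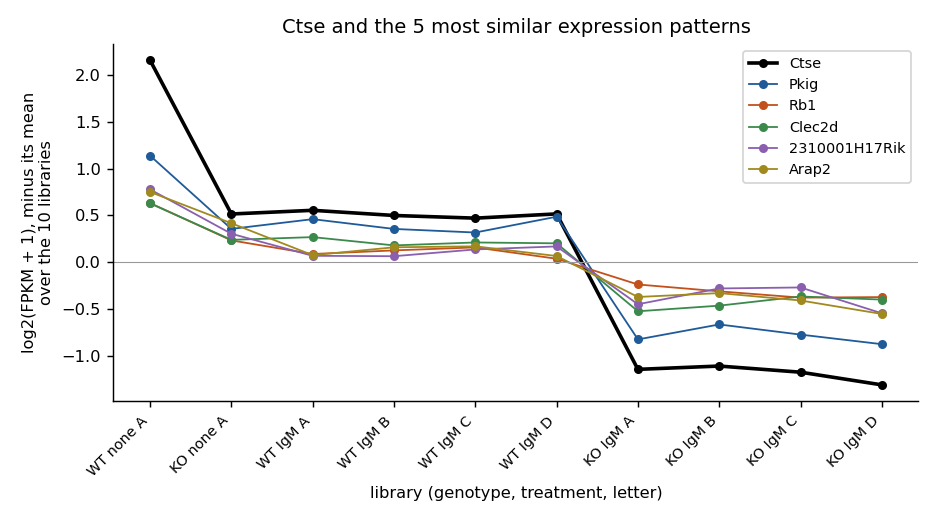
Levels of Ctse (black) and the 5 genes most like it in each library, as log2 FPKM plus 1 minus the gene's mean over the 10 libraries. Lines join libraries for reading only. All 6 genes are highest in resting wild type and lowest in stimulated libraries labelled knockout, and Ctse covers the widest range.

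Cathepsin relatives outside the 9 were followed in a list of 15, of which 6 are in the table and 3 were tested. Napsa, an aspartic protease of the same class as Ctse and Ctsd, went the other way: it held 112, 118, 119 and 116 FPKM in stimulated wild-type libraries and 133, 138, 145 and 129 FPKM in those labelled knockout. The groups did not overlap (0.22, limma adjusted p = 0.00477). Lgmn, the asparagine-specific protease that processes other cathepsins, was lower, at 60.2 to 64.2 against 51.1 to 58.3 FPKM (-0.17, limma adjusted p = 0.0267). That call was lost with any stimulated library left out except wild-type A and labelled-knockout B, and it held in 8 of 19 alternatives, with limma adjusted p up to 0.0840. Ctso held 14.03 to 14.5 and 12.4 to 15.3 FPKM and was not called (-0.092, limma adjusted p = 0.412). Ctsf, Ctsk and Ctsw stayed at or below 0.69 FPKM in every library. After anti-IgM, Napsa (-0.56, limma adjusted p = 5.35e-07) and Ctso (-1.40, limma adjusted p = 5.48e-09) fell.

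Of the listed cathepsin inhibitors (cystatins, serpins and relatives), 6 of 16 were tested. Anti-IgM lowered 5 and raised 1, Cstb, the cytosolic cystatin B, which went from 67.4 and 61.0 FPKM (wild type, labelled knockout) to 118 to 136 and 116 to 128 FPKM. Cstb is named after its value was seen. Among all tested genes 47.7% were lowered and 31.2% raised. Between genotypes 1 of the 6 was called, where 9.72% of all tested genes were called. This was Serpinb1a, an inhibitor of neutrophil-type serine proteases, at 69.8 to 78.3 FPKM in stimulated wild type and 80.3 to 85.2 FPKM in those labelled knockout (0.18, limma adjusted p = 0.0205). The Serpinb1a call was lost without wild-type library A or C and without library A, B or C labelled knockout, and it held in 12 of 19 alternatives, with limma adjusted p up to 0.0601. The median change with anti-IgM was -1.07 over these inhibitors.

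Genes that deliver enzymes to the lysosome were followed next. Of 13 tested sorting genes and lysosomal transcription factors, anti-IgM raised 7 and lowered 3 (Gga2, Scarb2 and Tfeb, named after their values were seen), with a median change of 0.17. Of all tested genes 31.2% were raised and 47.7% lowered. The 2 mannose 6-phosphate receptors, which carry newly made lysosomal enzymes out of the Golgi, were the members called higher between genotypes. Of all tested genes 3.91% were called higher in that comparison. M6pr went from 118 and 128 FPKM to 275 to 287 FPKM in wild type and 307 to 325 FPKM in the libraries labelled knockout (0.17 between the stimulated genotypes, limma adjusted p = 0.00207). Igf2r went from 5.64 and 8.22 FPKM to 43.35 to 48.2 and 49.4 to 53.2 FPKM (0.16, limma adjusted p = 0.0276), and its genotype call was lost with any stimulated library left out except wild-type C and labelled-knockout B. It held in 11 of 19 alternatives, with limma adjusted p up to 0.0755.

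Of 12 tested genes of the MHC class II pathway, which cathepsins serve, anti-IgM lowered 8 and raised 3 (H2-Aa, H2-Ab1 and H2-Eb1, the classical chains, named after their values were seen), beside 47.7% and 31.2% of all tested genes. The median change was -0.90. H2-Aa changed unequally between genotypes, by 0.072 in wild type and 0.44 in those labelled knockout (interaction limma adjusted p = 0.0136), a call lost without the filter on low values and after quantile normalization. H2-Ab1 went the other way, by 0.61 in wild type and 0.30 in those labelled knockout. Over the list, the genotype difference after minus before had a median of -0.044. The most negative value, of a member not named here, was -0.52, so H2-Aa does not stand for the list. Ifi30, the lysosomal thiol reductase that unfolds antigen, was the largest genotype difference of the list. It held 101, 101, 96.8 and 98.98 FPKM in stimulated wild-type libraries and 139, 143, 143 and 133 FPKM in those labelled knockout (0.48, limma adjusted p = 1.46e-05), in the direction opposite to Ctse. H2-DMb1, a chain of the peptide exchange factor, was at 50.8 to 57.9 and 60.4 to 62.2 FPKM (0.15, limma adjusted p = 0.0362). The H2-DMb1 call was lost with any stimulated library left out except wild-type A and B, and it held in 9 of 19 alternatives, with limma adjusted p up to 0.0895.

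Of 33 tested lysosomal hydrolases outside the 9, Lgmn among them, anti-IgM lowered 20 and raised 7, with a median of -0.39, beside 47.7% lowered and 31.2% raised among all tested genes. Between genotypes 2 were called higher and 3 lower, where 9.72% of all tested genes were called. Pla2g15, a lysosomal phospholipase, held 3.11 to 3.97 FPKM in stimulated wild type and 2.36 to 2.56 FPKM in those labelled knockout (-0.42, limma adjusted p = 0.00407). Lipa, the acid lipase (-0.23, limma adjusted p = 0.0424), Lgmn and Fuca1, a fucosidase (0.15, limma adjusted p = 0.0296), lay nearer the threshold. With a library left out the list's count was 1 to 4: the Lipa call held only without wild-type C, and that of Fuca1 only without wild-type A or labelled-knockout C. The list's split depends on the scale, with 1 higher and 1 lower on the TPM scale and 2 higher and 1 lower under median-of-ratios scaling. Of 16 subunits of the proton pump that acidifies the lysosome, anti-IgM raised 10 and lowered 2 (Atp6v1e1 and Atp6v1g1, named after their values were seen), with a median of 0.42, beside 31.2% raised and 47.7% lowered among all tested genes, and the 2 falls were not called on the TPM scale or with median-of-ratios scaling. Between genotypes 1 subunit was called, beside 9.72% of all tested genes. This was Atp6v0e (-0.19, limma adjusted p = 0.0270), with overlapping libraries, and its call was lost with any stimulated library left out except wild-type A and labelled-knockout B. It held in 10 of 19 alternatives, with limma adjusted p up to 0.0775.

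Markers of other cell types that express cathepsins were read beside these results. The 12 macrophage and monocyte markers summed to 96.1 and 115 FPKM in the resting libraries (wild type, labelled knockout), to 62.4 to 174 FPKM in stimulated wild type and to 40.2 to 130 FPKM in stimulated libraries labelled knockout. None of the 9 that were tested was called between genotypes, and Fcgr1 was listed at 0 in 2 libraries. Their highest sums were in library B of each genotype, and their part in the cathepsin levels was not tested. The 8 dendritic cell markers summed to 284 and 230 FPKM without stimulation, then 115 to 145 and 101 to 116 FPKM, most of it Cst3, and of the 4 tested Flt3 was called lower (-0.44, limma adjusted p = 0.00488) and Zbtb46 higher (0.39, limma adjusted p = 0.00332). T cell, NK cell and neutrophil sums stayed at or below 5.90 FPKM. Erythroid sums were 38.2 FPKM in resting wild type and 13.1 FPKM in the resting library labelled knockout, then 3.13 to 21.5 and 2.30 to 12.2 FPKM. Of the 8 B cell markers, anti-IgM lowered 7 and raised 1, beside 47.7% and 31.2% of all tested genes. Their median change was -1.18, and their sum went from 4358 FPKM to 1640 to 1711 FPKM in wild type. Falls as steep as those of Ctse, Ctsh and Ctss were thus not particular to the cathepsins. Between genotypes, Cd79b (-0.32, limma adjusted p = 0.00054) and Cr2 (-0.52, limma adjusted p = 0.000274) were called lower in the libraries labelled knockout. Of 5 plasma cell genes Prdm1 was called higher (0.44, limma adjusted p = 0.0101). Among all tested genes 3.91% were called higher and 5.81% lower between genotypes. Cr2 marks mature and, at its highest, marginal zone B cells. In the resting pair, where Ctse was already lower in the library labelled knockout, Cr2 stood at 41.8 FPKM (wild type) and 45.6 FPKM (labelled knockout). Stimulated libraries held 59.4 to 67.35 FPKM of Cr2 in wild type and 40.8 to 47.6 FPKM in those labelled knockout. The part of B cell subset proportions in the Ctse difference was not tested.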

How the data were processed

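Per the labels' protocols, library construction used a stranded mRNA kit; STAR 2.4, RSEM 1.2.14 and the mm10 build are named in the submitters' processing notes. The authors deposited FPKM per gene with 2 decimals; filters, annotation and use of strand are not given in the sources used here, so reads of genes that overlap cannot be assigned with certainty. FPKM are not counts, and their totals differed between libraries, so no count model was fitted and other scales were tried. Values were transformed as log2(FPKM + 1), genes were kept where the mean of all 10 libraries reached 1 FPKM, and limma 3.58.1 in R 4.3.3 (lmFit, eBayes with trend, two-sided) was fitted to all of them. Genotypes were compared over the 8 stimulated libraries, anti-IgM over all 10 with genotype as a term, and the interaction over the 4 groups with 6 residual degrees of freedom. Each fit was tested on simulated data. Absolute depth is unknown. Relative depth was recovered from whole-step low values of 89 of 211 genes searched.

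The members and gene lists were chosen with earlier results of these data known. The text names the 9 cathepsins, Nr4a1, the 5 genes most like Ctse, its 3 nearest tested genes on each side, the measured cathepsin relatives and, of each other list, up to 4 genes called between the stimulated genotypes; exceptions are stated. A called list member left unnamed is not reported here. Alternatives were a pseudocount of 0.1 or 5, a minimum mean of 5 FPKM or none, the TPM scale, median-of-ratios and quantile scaling, eBayes without trend or with robust estimation, the letter as a block, the 4 groups fitted together, stricter calls, and each library left out. All columns matched 1 sample each.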

Additional observations from a re-analysis of the deposited data

Results flagged for a closer look

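Genotype differences after anti-IgM departed from those before, by the interaction test with limma, for 10 of the tested genes named above. The tested genes named above make up the 96 stimulated groups counted below, a wild-type and a labelled-knockout group for each gene. The share called was thus close to the 18.9% of all tested genes, so these calls alone do not set the named genes apart. Values are the log2 difference (knockout minus wild type) after stimulation minus that before, and each rests on 1 unstimulated library per genotype. Ctsz gave -0.22 (limma adjusted p = 0.0386), moving from a higher to a nearly equal level in the libraries labelled knockout, and was called in 11 of 18 alternatives.

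Among genes outside the family, Cr2 gave -0.64 (limma adjusted p = 0.0069) and was called in 18 of 18 alternatives. Serpinb1a gave 0.42 (limma adjusted p = 0.0116), a call lost on the TPM scale, and Gga2 gave -0.56 (limma adjusted p = 0.0269), lost without the filter on low values. H2-Ab1 gave -0.31 (limma adjusted p = 0.0181), lost with median-of-ratios scaling. H2-Aa gave 0.37 (limma adjusted p = 0.0136), lost without the filter and after quantile normalization. Igf2r gave -0.32 (limma adjusted p = 0.0306), lost with a pseudocount of 5, with median-of-ratios scaling and without wild-type library D. Lgmn gave -0.33 (limma adjusted p = 0.0353) and was called in 10 of 18 alternatives. It was not called with median-of-ratios scaling, the letter as a block, eBayes without trend or no filter on low values. Nor was it called without wild-type C or D or labelled-knockout A or C. Flt3 gave -0.58 (limma adjusted p = 0.0398) and was called in 8 of 17. It was not called with median-of-ratios or quantile scaling, the letter as a block or no filter on low values. Nor was it called without wild-type B, C or D or labelled-knockout A or D. Pkig gave -0.41 (limma adjusted p = 0.0421) and was called in 6 of 18, and with a library left out only without wild-type C or labelled-knockout B. The highest limma adjusted p of these 3 over their alternatives were 0.0905, 0.0760 and 0.193.

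Single libraries stood far from the other 3 of their group in 2 of 96 groups of 4, where chance gives about 1 in 20. Nucks1, a neighbour of Ctse, held 45.7 FPKM in stimulated wild-type library C, against 41.2 to 41.4 FPKM in the rest. H2-Eb1 held 2904 FPKM in stimulated library C labelled knockout, where the others held 2759.9 to 2779 FPKM.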

How the results depend on the processing

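Ctse kept its direction and its call between the stimulated genotypes in 19 of 19 alternatives and with anti-IgM in 20 of 20; Ctsh, Ctss and Ctsc kept their calls with anti-IgM in 20 of 20 each. The number of cathepsins called between genotypes was 1, 2 with median-of-ratios scaling and 1 to 2 with a library left out. The 6 called with anti-IgM (2 higher, 4 lower) became 7 on the TPM scale (3 and 4), 6 after quantile normalization (1 and 5), 8 with median-of-ratios scaling (4 and 4), 5 to 7 with a library left out and 2 at a change of at least 1. The single interaction call became 3 on the TPM scale, 0 with median-of-ratios scaling, quantile normalization, eBayes without trend or a replicate block, and 0 to 1 with a library left out. Signs of cathepsins and their neighbours changed only for differences not called on the deposited scale. With anti-IgM, Ctsa was 0.11 on the TPM scale, 0.12 with median-of-ratios scaling, 0.00073 with the replicate block and -0.15 to 0.043 with a library left out. Between genotypes, median-of-ratios scaling gave 0.011 for Ctsa, 0.013 for Ctsh and 0.0078 for Ctsz. With a library left out, the ranges were -0.054 to 0.010 (Ctsa), -0.029 to 0.041 (Ctsb), -0.053 to 0.0076 (Ctsh), -0.28 to 0.043 (Ctsl), -0.014 to 0.059 (Ikbke) and -0.11 to 0.10 (Rab7l1); quantile normalization gave 0.018 for Rab7l1. In the interaction, Ctse was 0.10 with a pseudocount of 5, 0.024 under median-of-ratios and 0.20 under quantile scaling, Ctsd 0.028 and 0.067 with the latter 2, and the TPM scale gave -0.043 for Ctsh and -0.054 for Ctss. The causes were not tested.

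The letters A to D were not taken to pair the stimulated libraries of the genotypes, whose same-letter deviations correlated at -0.021, 0.045, 0.0075 and -0.12; pairs of a resting and a stimulated library could not be examined this way, with 1 resting library per genotype. With letter as a block, Ctsb lost its anti-IgM call and Ctsz its interaction call, and no other cathepsin call changed. The interaction called 1931 genes, 3562 on the TPM scale and 1238 with the block. The share of called genes that were higher moved from 40.2% to 57.3% (median-of-ratios) and 52.2% (quantile) between genotypes, from 39.5% to 50.3% and 50.1% with anti-IgM, and from 22.1% to 41.7%, 42.0% and 4.91% (TPM) in the interaction. Values of the unstimulated pair and the interaction rest on 1 unstimulated library per genotype.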
